A study of Mus musculus with 6 samples.

Results

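The second step of an in vitro endoderm differentiation was described, from mesendoderm cells sorted on day 3 (d3F) to endoderm cells sorted on day 5 (d5FS). The comparison rests on 4 of the 6 RNA-seq samples of the series, chosen by their labels: 2 of d3F and 2 of d5FS. All samples came from 1 double knock-in mouse ES cell line that is heterozygous for a Foxa2-Venus fusion and homozygous for a Sox17-Cherry fusion. Cells were grown as a monolayer on gelatine with Wnt3a and Activin A, secreted signals that drive ES cells towards endoderm, and were isolated by FACS. The d3F cells were Venus-positive and Cherry-negative, the d5FS cells were positive for both reporters. The remaining 2 samples are undifferentiated, double-negative cells of day 0 (d0) and entered the estimate of the spread, with a few of their levels given for reference. Every sample carries both reporters, so the line has no unmodified control. The gate and the day change together between d3F and d5FS and cannot be told apart. The study's methods call the replicates independent.

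Mesendoderm is the transient population of the primitive streak from which mesoderm and definitive endoderm arise, and the T-box factor T (Brachyury), Mixl1, Eomes and Nodal signalling mark it. Definitive endoderm is the epithelium that lines the future gut and gives rise to liver, pancreas and lung. Its formation depends on Sox17 and on forkhead factors of the Foxa family, which act with Gata and Hnf factors at genes of gut and liver. Visceral and parietal endoderm, the extraembryonic lineages of the yolk sac, share many of these factors, and visceral endoderm also secretes plasma proteins and lipoproteins.

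Expected counts, the RSEM estimates of fragments per gene, summed to 22768686 and 20676972 in the d3F samples and to 16457729 and 17555023 in the d5FS samples. Values are given per sample, replicate 1 first, as CPM, counts scaled to a common library size, after TMM scaling, which corrects for a few genes taking a large share of a library. Replicates differed by far more than sampling noise, with 1649 genes over 2-fold apart between the d3F samples and 2267 between the d5FS samples. Levels compared between genes are TPM, a measure per transcript length. Genes under 300 bases, mostly small RNAs, took 44.7 and 57.6% of TPM in d3F and 62.1 and 70.4% in d5FS, and Snord22 alone took 33.0% in d5FS replicate 2. Per-length levels were therefore rescaled over genes of 300 bases or more, a choice made after seeing the data.

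Between d3F and d5FS, 224 of 14539 tested genes passed edgeR's quasi-likelihood test (Benjamini-Hochberg adjusted p under 0.05, absolute log2 fold change above 1), 1.54% of those tested. Of these, 157 (1.08%) were higher in d5FS and 67 (0.461%) were lower. At an unadjusted p under 0.05, 1359 genes (9.35%) were higher and 1276 (8.78%) were lower, which is the background for the unadjusted counts of gene lists given here. The median log2 fold change was 3.22 for the genes that rose and -2.99 for those that fell, against 0.01 over all tested genes. The rises exceeded a log2 fold change of 4 in 50 genes and the falls in 20. Of the 157 risen genes, 67 had under 1 TPM in d3F, 90 were already at 1 or more, and 81 were under 1 TPM in d0. Of the 67 fallen genes, 38 still had 1 TPM or more in d5FS. The risen genes held 0.197 and 0.217% of TPM in d3F and 1.69 and 1.34% in d5FS. The fallen genes held 0.355 and 0.158% in d3F and 0.0450 and 0.0318% in d5FS. In bulk samples, fewer cells of a type and less RNA per cell cannot be told apart.

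These calls depended on each of the 4 libraries. Without d3F replicate 1, edgeR called 0 genes, with 1206 genes at an unadjusted p under 0.05, and no other tool was run on that set. Without d3F replicate 2 it called 48 higher and 38 lower, without d5FS replicate 1 it called 17 and 0, and without d5FS replicate 2 it called 19 and 3. In these fits the lone sample is assumed to vary like the other populations. All 224 genes kept their sign in each of these fits. Since their populations did not overlap, leaving out 1 sample could hardly change a sign, so this is no check of the calls. Values of d3F and d5FS samples did not overlap in any of the 224 genes, but the same held for 52.2% of all tested genes. The d3F samples also differed in order. Replicate 2 was above replicate 1 in 111 of the 157 risen genes (70.7%) and in 10 of the 67 fallen genes (14.9%), against 49.5% of all tested genes. So d3F replicate 2 lay nearer to d5FS for most called genes, and the fits without it are given above.

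**Figure D1:**
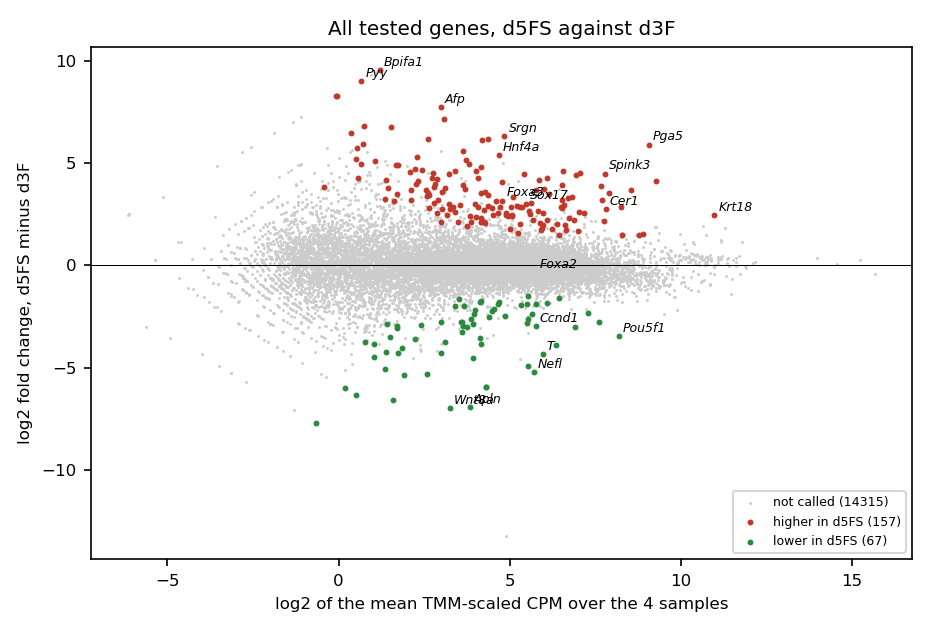
Each point is 1 of the 14539 tested genes, with the log2 of its mean TMM-scaled CPM over the 4 samples on the x axis and its log2 fold change (d5FS minus d3F) on the y axis. The 157 genes called higher (red) and 67 called lower (green) reach from rare to abundant transcripts, and Foxa2 lies near 0.

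The genes named as marks of the d5FS cells, Sox17, Hnf4a, Afp, Foxa3 and Cer1, all rose. Sox17 was one of the sorting genes, so its direction was set by the gate. It stood at 4.75 and 14.5 CPM in d3F and at 54.3 and 102.5 in d5FS, a log2 fold change of 3.03 ± 0.57 (SE, n = 2 per population, edgeR adjusted p = 0.0453). Foxa2, for which both populations were sorted, had 71.1 and 47.9 CPM in d3F and 36.7 and 59.4 in d5FS. The Foxa2 values of the populations overlap and its log2 fold change was -0.31 ± 0.45 (edgeR adjusted p = 0.765). Hnf4a, a nuclear receptor that activates liver and gut genes, went from 0.244 and 2.17 CPM to 39.0 and 60.8, a log2 fold change of 5.40 ± 0.84 (edgeR adjusted p = 0.0263). Foxa3, the third Foxa factor, had 5.36 and 5.56 CPM in d3F and 38.0 and 60.5 in d5FS, a log2 fold change of 3.17 ± 0.37 (edgeR adjusted p = 0.0130). Its d3F level was close to that of d0, 4.56 and 4.97 CPM. Cer1, a secreted inhibitor of Nodal and BMP, was already present in d3F at 51.7 and 63.7 CPM. It reached 295.2 and 481.6 in d5FS, a log2 fold change of 2.75 ± 0.42 (edgeR adjusted p = 0.0242). Both d5FS samples were far above both d3F samples in each of these rises.

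Afp, the fetal plasma protein alpha-fetoprotein, had 2 and 1 counts in the d3F samples and 108 and 441 in d5FS, or 6.13 and 25.3 CPM. The pooled counts give a 232-fold rise with a 95% exact binomial interval of 78.9 to 1130, which covers counting error only (edgeR adjusted p = 0.0160). Per length, the means in d5FS were 271.5 TPM for Cer1, 28.9 for Foxa3, 26.8 for Sox17, 12.98 for Hnf4a and 8.65 for Afp. On mm10 (GENCODE M21) the genes lie at chr1:4490931-4497354 (Sox17, minus strand), chr2:163506808-163572910 (Hnf4a, plus), chr5:90490737-90508907 (Afp, plus), chr7:19013284-19023538 (Foxa3, minus) and chr4:82881751-82885148 (Cer1, minus).

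**Figure D2:**
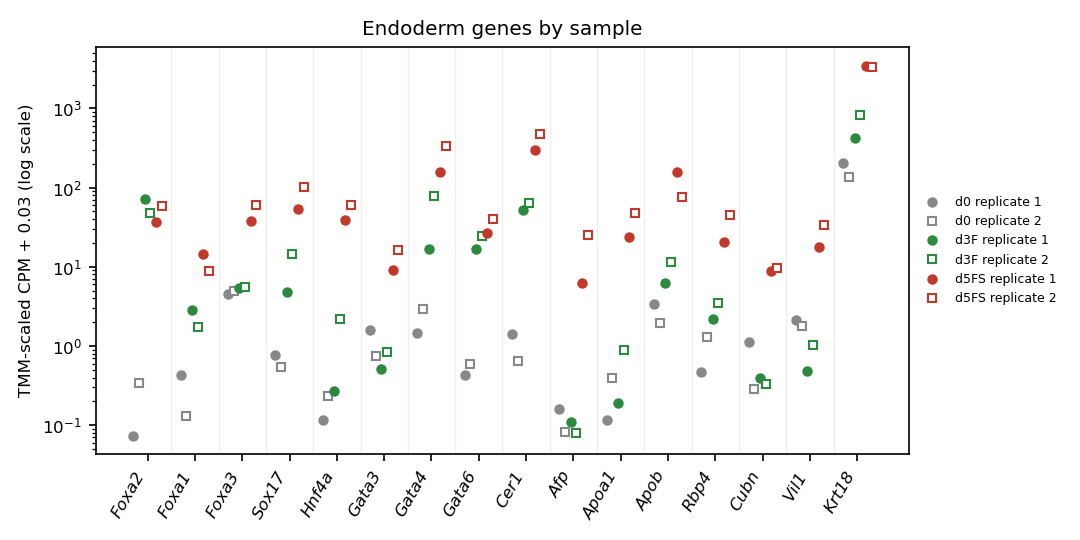
TMM-scaled CPM plus 0.03 on a log axis for 16 endoderm genes, 1 point per sample (grey d0, green d3F, red d5FS; filled replicate 1, open replicate 2). The d5FS points lie above both d3F points in every gene drawn but Foxa2, and Foxa1, Gata4 and Gata6 did not pass the test.

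Promoters of 5 risen genes are shown because they hold the most matches to short motifs of endoderm factors among the genes named here. They are the 250 bases before the RefSeq start (GRCm38.p6, all on the plus strand), 5′ to 3′, with motif matches in capitals. The motifs searched on both strands were the Foxa core TGTTTAC, the Gata core AGATAA, the Hnf4 core CAAAGTCCA, the Tcf/Lef core TTCAAAG, the T-box core AGGTGTGA, and GTTAAT, which is 1 arm of the Hnf1 palindrome. Windows are chr11:96024295-96024544 for Gip, chr2:154142630-154142879 for Bpifa1, chr5:31297313-31297562 for Gckr, chr2:163546905-163547154 for Hnf4a, which is the downstream of its 2 listed starts, and chr16:33794239-33794488 for Muc13.
Gip: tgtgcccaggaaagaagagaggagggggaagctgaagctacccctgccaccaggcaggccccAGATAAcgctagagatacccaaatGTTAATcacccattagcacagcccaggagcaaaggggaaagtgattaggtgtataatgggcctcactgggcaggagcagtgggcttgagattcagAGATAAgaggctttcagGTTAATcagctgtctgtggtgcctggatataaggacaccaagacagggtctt
Bpifa1: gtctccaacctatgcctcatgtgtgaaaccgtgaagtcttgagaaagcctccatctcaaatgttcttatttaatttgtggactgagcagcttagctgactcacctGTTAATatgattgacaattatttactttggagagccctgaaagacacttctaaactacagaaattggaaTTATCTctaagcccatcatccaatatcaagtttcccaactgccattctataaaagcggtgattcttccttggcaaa
Gckr: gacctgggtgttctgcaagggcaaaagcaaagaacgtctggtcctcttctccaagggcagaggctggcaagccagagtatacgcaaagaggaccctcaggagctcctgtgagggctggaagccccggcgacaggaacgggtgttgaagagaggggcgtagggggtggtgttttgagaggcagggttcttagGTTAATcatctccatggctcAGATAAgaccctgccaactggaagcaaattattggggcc
Hnf4a: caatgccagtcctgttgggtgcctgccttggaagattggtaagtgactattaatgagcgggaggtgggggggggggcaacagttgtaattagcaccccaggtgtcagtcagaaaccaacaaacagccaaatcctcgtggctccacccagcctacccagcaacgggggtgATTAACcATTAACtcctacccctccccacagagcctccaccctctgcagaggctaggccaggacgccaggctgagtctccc
Muc13: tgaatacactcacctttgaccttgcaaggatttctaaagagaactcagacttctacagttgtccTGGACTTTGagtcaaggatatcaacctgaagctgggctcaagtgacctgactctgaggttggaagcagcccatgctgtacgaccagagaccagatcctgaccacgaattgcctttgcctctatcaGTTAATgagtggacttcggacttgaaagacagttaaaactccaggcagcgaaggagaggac

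Gip holds both the Gata core and the Hnf1 arm in 2 copies each, Bpifa1 and Gckr hold 1 of each, and Muc13 holds an Hnf4 core and an Hnf1 arm. The Hnf4a window holds 2 Hnf1 arms, 81 and 74 bases before the start. Over the window from 250 bases before to 50 after the start, the Hnf1 arm was found in 15 of 162 promoters of risen genes (9.26%), in 2 of 55 of fallen genes (3.64%) and in 4.34% of 13754 promoters of tested genes. The Tcf/Lef core was found in 3.09, 9.09 and 3.52% of these groups, the T-box core in 3.70, 1.82 and 0.836% and the Foxa core in 3.70, 3.64 and 2.48%. The Gata core was found in 7.41, 5.45 and 6.39% and the Hnf4 core in 1.23, 0 and 0.407%. The full Hnf1 palindrome matched no window. These shares are descriptions of a few promoters, since 118 risen and 46 fallen genes had a listed window. The Tcf/Lef and Hnf4 letters can overlap in CAAAG. The Hnf1 arm lies inside the full Hnf1 palindrome, and no other motif lies inside another. A match is not evidence of binding.

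Of 24 tested endoderm transcription factors, 3 rose (Hnf4a, Foxa3 and the sorting gene Sox17) and none fell, with a median log2 fold change of 1.30. At an unadjusted p under 0.05, 12 were higher. Foxa1 had 2.80 and 1.72 CPM in d3F and 14.5 and 8.94 in d5FS (log2 fold change 2.37 ± 0.58, edgeR adjusted p = 0.0866). Among the Gata factors, Gata3 alone passed the test, from 0.487 and 0.808 CPM to 9.19 and 16.2 (log2 fold change 4.29 ± 0.62, edgeR adjusted p = 0.0210). Gata4, a partner of the Foxa factors in gut endoderm, had 16.6 and 79.2 CPM in d3F and 156.0 and 335.4 in d5FS (2.36 ± 0.71, edgeR adjusted p = 0.138), with the d3F samples far apart. Gata6 had 16.7 and 24.4 against 26.4 and 39.8 CPM (0.69 ± 0.36, edgeR adjusted p = 0.362). Gata1 had 3.17 and 19.9 against 16 and 27.7 CPM, with overlapping values, and Gata2 stayed under 1 CPM in all 4 samples. The nuclear receptor list had 2 risen genes of 33, Hnf4a and the retinoic acid receptor Rarb, which went from 2.23 and 5.96 to 24.1 and 35.6 CPM.

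Among 18 tested Sox factors, the sorting gene Sox17 and Sox21 rose, the latter from 1.83 and 1.06 to 10.1 and 14.4 CPM. Of 30 Fox factors Foxa3 alone passed, and the median of the family was -0.34. No Klf gene (16 tested) passed edgeR's test, with 2 of them at an unadjusted p under 0.05. Only 4 of 39 Hox genes were expressed enough to be tested, and none was called by edgeR, with 0 at an unadjusted p under 0.05. None of 338 Zfp zinc finger genes was called by edgeR, with 10 higher and 8 lower at an unadjusted p under 0.05. Over all tested genes 1.54% were called, and 9.35% were higher and 8.78% lower at an unadjusted p under 0.05. At these shares, no call among 4 Hox or 16 Klf genes says little about these families.

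Genes that liver and yolk sac secrete were among the rises. Of 16 tested plasma protein genes, 3 rose (Afp, Serpinf2, Rbp4) and 8 were higher at an unadjusted p under 0.05, with a median of 2.51. Rbp4, the retinol carrier of blood, had 2.19 and 3.49 CPM in d3F and 20.8 and 44.9 in d5FS (log2 fold change 3.53 ± 0.60, edgeR adjusted p = 0.0340). Serpinf2, the inhibitor of plasmin, had 2 counts over the d3F samples and 113 over d5FS, a 71.6-fold ratio (95% interval 19.4 to 598). Transthyretin (Ttr), named after its values were seen, had 0 and 0.657 CPM in d3F and 10.7 and 20.2 in d5FS and missed the threshold (edgeR adjusted p = 0.0629).

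Of 19 coagulation and complement genes, 3 rose and none fell. Cd55 and Cd59a are surface inhibitors of complement. Cd55 went from 21.1 and 31.3 to 559.8 and 203.4 CPM (log2 fold change 3.87 ± 0.58, edgeR adjusted p = 0.0235), and Cd59a from 15.7 and 31.6 to 88.6 and 135.6. Proc, the precursor of the anticoagulant protein C, went from 0.650 and 1.16 to 9.64 and 16.2 CPM.

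Of 28 lipoprotein genes, 6 rose and none fell, while the median of the list was 0.40. Apob, the scaffold of lipoprotein particles, had 6.13 and 11.4 CPM in d3F and 159.4 and 76.8 in d5FS (log2 fold change 3.75 ± 0.52, edgeR adjusted p = 0.0193). Apoa1, the main protein of high-density lipoprotein, had 0.162 and 0.859 against 23.9 and 47.6 CPM (6.16 ± 0.81, edgeR adjusted p = 0.0184). Apoa4 had 2 counts over the d3F samples and 99 over d5FS, a 62.7-fold ratio (95% interval 16.9 to 525). Mttp, which loads lipid onto Apob, rose from 4.43 and 5.86 to 25.5 and 28.6 CPM. Soat2, which esterifies cholesterol for export, rose from 0.650 and 2.73 to 35 and 28.9 CPM. Fabp3, a fatty acid binding protein, rose from 17.1 and 18.3 to 181.6 and 148.6 CPM. Apoa2 did not share this pattern, at 1.26 and 0.808 against 0.567 and 1.09 CPM.

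Genes of uptake and of the apical surface were also among the rises. Of 18 endocytic genes, 3 rose: Cubn, the receptor cubilin, from 0.365 and 0.303 to 8.74 and 9.52 CPM (log2 fold change 4.74 ± 0.73, edgeR adjusted p = 0.0252), and the lysosomal proteases Ctsh and Ctsl. Ctsh went from 2.84 and 12.2 to 198.6 and 166.3 CPM and Ctsl, abundant from the start, from 241.3 and 252.3 to 754.4 and 665.6. With Ctsf, at 8.57 and 9.20 against 56.3 and 43.4 CPM, 3 of 10 tested cathepsins rose, and all 10 had a log2 fold change above 0. Cubn's partners Amn and Lrp2, named after their values were seen, did not pass. Amn had 0.162 and 0.404 against 2.16 and 5.04 CPM (edgeR adjusted p = 0.0573), and Lrp2 had 142.3 and 116.8 against 272.4 and 48.9, with overlapping values.

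Of 25 brush border and apical membrane genes, 4 rose and none fell, with a median of 1.44. Vil1, which bundles actin in microvilli, had 0.447 and 1.01 CPM in d3F and 17.9 and 33.7 in d5FS (log2 fold change 5.16 ± 0.58, edgeR adjusted p = 0.0130). Muc13, a membrane mucin, went from 0.122 and 0.202 to 15.9 and 7.97 CPM (6.18 ± 0.66, edgeR adjusted p = 0.0130). The protease Tmprss2 went from 10.7 and 8.59 to 66.4 and 72.2 CPM and the scaffold Pdzk1 from 2.92 and 6.01 to 25.02 and 22.8. Among 30 hepatic and intestinal enzymes there was no common direction: Gckr, the regulator of glucokinase, and Dio3 rose, and Arg1 and Fah fell. Gckr had 0.528 and 2.02 against 23.8 and 38.8 CPM. Arg1, the urea cycle arginase, had 4.47 and 5.46 against 0.397 and 0.115 CPM, and Fah, of tyrosine breakdown, 41.6 and 32.2 against 7.72 and 8.25.

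Epithelial genes were mostly higher in d5FS. Of 41 tested junction and keratin genes, 4 rose, none fell, 24 were higher at an unadjusted p under 0.05, and 37 had a log2 fold change above 0 (median 1.16). Krt18, a keratin of simple epithelia, had the highest level per length of all called genes in d5FS, 3146 TPM on average against 533.8 in d3F. Its samples stood at 418.1 and 813.7 CPM in d3F and at 3481 and 3353 in d5FS (log2 fold change 2.47 ± 0.43, edgeR adjusted p = 0.0364). Its filament partner Krt8, named after its values were seen, had 747.2 and 1468 against 3638 and 4169 CPM and did not pass (edgeR adjusted p = 0.0993). Cldn2, a pore-forming tight junction protein, rose from 0.0812 and 0.202 to 2.21 and 3.38 CPM. The transcription factor Ovol2 rose from 6.82 and 8.03 to 26.3 and 36.1 CPM and the protease inhibitor Spint1 from 41.4 and 38.9 to 143.5 and 171.0. Cdh1 (E-cadherin) had 372.7 and 218.2 against 477.6 and 466.0 CPM (edgeR adjusted p = 0.382).

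Of 31 basement membrane genes, 2 rose: Lamb3, a chain of laminin-332, from 6.05 and 6.11 to 69.2 and 54.7 CPM, and Tinagl1 from 9.54 and 11.8 to 64.8 and 48.6. Itgb4, the integrin that binds this laminin, was the only called integrin of 24, at 3.33 and 2.48 against 22.5 and 13.6 CPM. Of 26 mesenchymal genes Acta2, smooth muscle actin, rose from 34.9 and 42.2 to 585.8 and 301.0 CPM (log2 fold change 3.52 ± 0.39, edgeR adjusted p = 0.0130), and none fell. No cadherin (53 tested), collagen (38) or Eph and ephrin gene (20) was called by edgeR. At an unadjusted p under 0.05, 3 cadherins (5.66%), 12 collagens (31.6%) and 2 Eph or ephrin genes (10%) were higher, against 9.35% of all tested genes. At the same threshold 3 cadherins, 1 collagen and 3 Eph or ephrin genes were lower. Cdh11, a mesenchymal cadherin, had 16.3 and 45.7 against 3.18 and 4.24 CPM (edgeR adjusted p = 0.0583), and the collagen Col3a1 had 4.14 and 5.61 against 59.1 and 17.1 (edgeR adjusted p = 0.0509).

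The largest rises were in genes near or at 0 in d3F. Bpifa1, a secreted protein of airway epithelium, Pyy and Gip, peptide hormones of the gut, and Tff3, a secreted trefoil peptide, had no count in either d3F sample. Against a floor of 3 counts per library they were at least 33.8-fold (Bpifa1), 23.1-fold (Pyy), 14.2-fold (Tff3) and 14.0-fold (Gip) higher in d5FS. Their d5FS levels were low, at 5.56 and 3.67 CPM for Bpifa1 and 5.45 and 0.860 for Pyy. Myl3, a myosin light chain of heart and slow muscle, went from 0.122 and 0.101 to 19.2 and 14.6 CPM (log2 fold change 7.16 ± 0.68, edgeR adjusted p = 0.0104). The steroid reductase Srd5a2 had 2 counts over d3F and 200 over d5FS, a 127-fold ratio (95% interval 34.6 to 1050), and Lypd2 had 1 and 90 counts, a 114-fold ratio (19.9 to 4550). Srgn, the proteoglycan serglycin, went from 0.447 and 0.960 to 65.4 and 48.0 CPM (6.34 ± 0.58, edgeR adjusted p = 0.0102).

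Abundant risen genes per length were Krt18, Spink3, Pga5, Wbp5 and Myl7. Spink3, a trypsin inhibitor, averaged 84.0 TPM in d3F and 2033 in d5FS, with 7.47 and 30.2 against 363.9 and 483.6 CPM (log2 fold change 4.49 ± 0.64, edgeR adjusted p = 0.0206). Pga5, a pepsinogen, averaged 14.4 and 921.9 TPM, with 8.20 and 26.5 against 739.5 and 1354 CPM (5.92 ± 0.68, edgeR adjusted p = 0.0130). Myl7, the atrial myosin light chain, averaged 28.9 and 740.7 TPM. Wbp5 rose less, from 226.1 and 233.5 to 705.2 and 589.7 CPM.

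Several further groups were noticed after the calls were seen, so their counts are descriptions and no support. Over all tested genes, 1.08% rose. Of 26 contractile protein genes 5 rose (Myl3, Myl7, Tnnc1, Tnnt1, Acta2). Tnnc1 went from 0.487 and 1.26 to 41.0 and 13.9 CPM and Tnnt1 from 7.59 and 14.0 to 147.7 and 322.2. Of 26 listed peptide hormone and serotonin synthesis genes only 11 were expressed enough to be tested, and 5 rose (Pyy, Gip, Nppb, Tph1, Chga). Pyy and Gip had no count in d3F and passed the filter on low counts only through d5FS. Tph1, the enzyme that starts serotonin synthesis, went from 2.96 and 4.497 to 88.8 and 75.6 CPM (log2 fold change 4.46 ± 0.41, edgeR adjusted p = 0.0102).

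Of 16 imprinted growth genes 5 rose (H19, Igf2, Igf2os, Ascl2 and Dio3). The non-coding RNA H19 went from 31.8 and 102.8 to 1487 and 837.6 CPM and its neighbour Igf2, a growth factor, from 28.9 and 79.7 to 946.8 and 439.4. Igf2os overlaps Igf2 on the opposite strand, and the libraries were made with a kit that does not mark strand, so reads of these genes cannot be told apart. Of 10 Frizzled receptors of Wnt, Fzd5 rose from 67.2 and 79.4 to 485.6 and 574.3 CPM and Fzd10 fell from 27.7 and 25.6 to 3.86 and 3.50.

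Of 266 solute carriers 5 rose (1.88%) and 1 fell (0.376%), near the shares of 1.08 and 0.461% over all tested genes, with a median of 0.01. The phosphate carrier Slc34a2 went from 0.406 and 0.606 to 26.7 and 22.0 CPM (log2 fold change 5.58 ± 0.70, edgeR adjusted p = 0.0160), Slc13a4, a sulphate carrier, from 0.893 and 0.758 to 8.57 and 17.8, and the glutamine carrier Slc38a5 from 3.49 and 1.87 to 19.3 and 22.5. The others that rose were Slc39a2 and Slc12a2. Slc27a2, a fatty acid transporter and acyl-CoA synthetase, fell from 130.4 and 47.4 to 3.69 and 2.18 CPM (-4.92 ± 0.78, edgeR adjusted p = 0.0272). No ABC transporter (36 tested) or cytochrome P450 gene (23) passed edgeR's test. At an unadjusted p under 0.05, 4 of each group were higher and 3 of each were lower, or 11.1 and 8.33% of the ABC genes and 17.4 and 13% of the P450 genes. Cyp26a1, which breaks down retinoic acid, had 136.9 and 191.2 against 449.1 and 304.5 CPM (edgeR adjusted p = 0.116). Of 17 serpins Serpinf2 and Serpinb6b rose, and of 19 transmembrane and related serine proteases Tmprss2 and Prss12 rose, the latter from 7.76 and 30.1 to 183.2 and 194.3 CPM.

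Genes of the primitive streak fell in part. Of 29 tested streak and mesendoderm genes, 6 fell (Wnt8a, Mesp1, T, Wnt5b, Tdgf1 and Mixl1) and none rose, with a median of -0.57. T had 169.0 and 69.1 CPM in d3F and 8.51 and 3.27 in d5FS (log2 fold change -4.34 ± 0.79, edgeR adjusted p = 0.0437). Wnt8a, a Wnt ligand of the streak, had 28.6 and 9.20 CPM against 0.0567 and 0.229 (-6.99 ± 0.91, edgeR adjusted p = 0.0174). Mixl1, a homeobox factor, had 32.3 and 17.7 against 3.86 and 4.30 CPM, and Wnt5b had 11.6 and 7.18 against 1.42 and 1.03. Mesp1, a factor of cardiac mesoderm, was low in d3F and had 1 count over the d5FS samples, 75-fold fewer (95% interval 13.1 to 2990). Other streak genes, named after their values were seen, did not pass (edgeR adjusted p from 0.712 to 0.963). Eomes had 99.2 and 151.1 against 117.7 and 118.0 CPM, Nodal 87.4 and 90.2 against 64.0 and 98.6, Gsc 40.7 and 58.8 against 45.8 and 77.7, and Lefty2 205.4 and 120.8 against 167.9 and 144.2. In these 4 genes the values of the populations overlap.

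Of 17 node and notochord genes, Noto and Chrd fell and none rose. The summed level of the list was nonetheless higher in d5FS, at 980.0 and 1620 CPM in d3F and 3797 and 4289 in d5FS, most of it Krt8. The summed level of the streak list was 2157 and 2398 against 2913 and 2594 CPM, with Amot at 433.9 and 1206 against 1981 and 1662. The homeobox gene Noto had 6.25 and 3.64 CPM in d3F and 0.0567 and 0.229 in d5FS (log2 fold change -5.06 ± 0.78, edgeR adjusted p = 0.0259), and the BMP antagonist Chrd had 49.4 and 22.3 against 7.15 and 5.22. Among 21 secreted antagonists, Cer1 rose and Chrd fell. Of 31 Nodal, BMP, Wnt and FGF ligands, 4 fell (Wnt8a, Fgf15, Wnt5b and Gdf3) and none rose. Fgf15 had 9.99 and 2.58 against 0.284 and 0.344 CPM.

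Of 21 chemokine and apelin receptor genes, listed with their ligands, both apelin receptor ligands fell and no other member was called. Apln had 43.2 and 13.5 CPM in d3F and 0.340 and 0.115 in d5FS (log2 fold change -6.92 ± 1.12, edgeR adjusted p = 0.0307). Apela had 110.4 and 48.6 against 12.5 and 13.2 CPM (-2.63 ± 0.43, edgeR adjusted p = 0.0316). Their receptor Aplnr, named after its values were seen, had 26.8 and 18.4 against 9.81 and 2.87 CPM (edgeR adjusted p = 0.205).

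Of 33 pluripotency genes, 4 fell and none rose. Pou5f1 (Oct4), required for pluripotency, had 694.4 and 367.3 CPM in d3F and 52.9 and 43.7 in d5FS (log2 fold change -3.46 ± 0.44, edgeR adjusted p = 0.0174). L1td1, an RNA-binding protein of ES cells, had 243.5 and 61.4 against 11.1 and 9.40 CPM, Tdgf1, the Nodal co-receptor Cripto, 495.0 and 191.1 against 66.4 and 33.0, and Gdf3 29.8 and 12.8 against 3.29 and 2.92. In d0 these genes stood at 863.9 and 1367 (Pou5f1), 371.1 and 227.0 (L1td1), 359.0 and 349.3 (Tdgf1) and 108.2 and 84.4 CPM (Gdf3). Per length, Pou5f1 averaged 518.3 TPM in d3F and 46.6 in d5FS. Nanog, named after its values were seen, had 99.96 and 56.4 against 13.8 and 13.9 CPM and did not pass (edgeR adjusted p = 0.0896). Sox2 had 38.8 and 12.9 against 22.1 and 12.9 CPM.

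Other large falls did not belong to these groups. Nefl, a neurofilament chain, fell from 163.5 and 38.8 to 3.06 and 2.29 CPM (log2 fold change -5.24 ± 0.73, edgeR adjusted p = 0.0193). The lipoxygenase Alox15 fell from 15.8 and 7.38 to 0.170 and 0.401 CPM and Ccno, a cyclin of multiciliated cells, from 9.14 and 5.51 to 0.114 and 0.229. Sprr2a1 and Sprr2a2, epidermal barrier genes, have identical values in every sample (51.2 and 26.6 against 0.340 and 0.917 CPM), so they share reads and count as 1 observation. Fam19a4 had 2 counts over d5FS, 109-fold fewer (95% interval 29.8 to 901). The class I genes H2-Q7, H2-Q8 and H2-Q10 also fell but are near-identical paralogs whose reads may be split, and are uncertain.

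**Figure D3:**
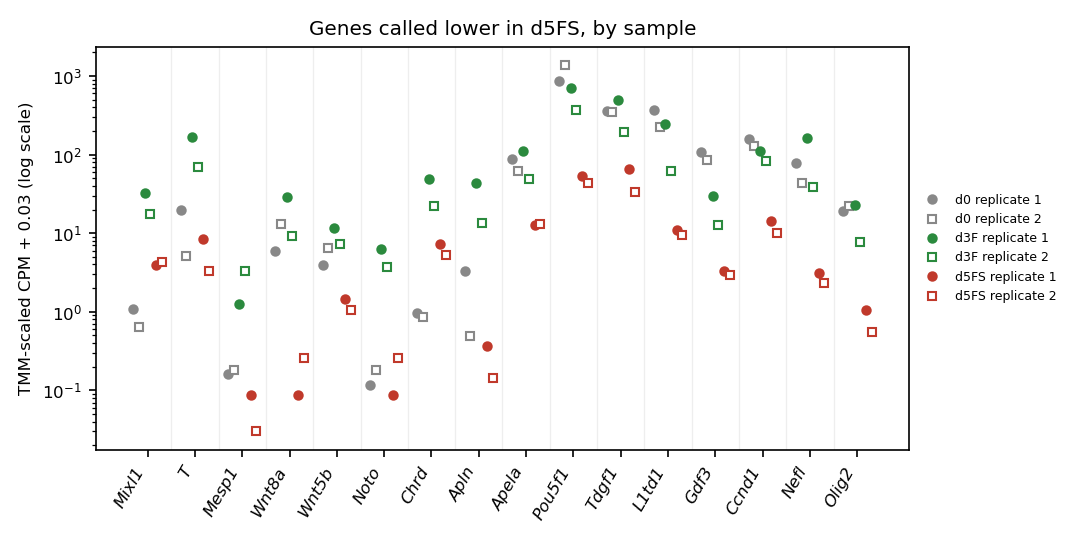
TMM-scaled CPM plus 0.03 on a log axis for 16 genes called lower in d5FS, 1 point per sample (grey d0, green d3F, red d5FS; filled replicate 1, open replicate 2). Both d5FS points lie under both d3F points in each gene, and d3F replicate 2 lies under d3F replicate 1 in all but Mesp1.

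Among genes of general cell metabolism and growth calls were few, as they were over all tested genes (1.54%). Of 46 cell cycle genes only Ccnd1 (cyclin D1) was called, falling from 109.4 and 81.8 to 14.3 and 10.1 CPM (log2 fold change -2.97 ± 0.34, edgeR adjusted p = 0.0130), while 37 of the 46 lay below 0 (median -0.43). At an unadjusted p under 0.05, 12 cell cycle genes were lower and 3 were higher. Of 27 glycolysis genes none was called by edgeR, with 12 lower and 4 higher at that threshold. Over all tested genes, 8.78% were lower and 9.35% were higher at it. Eno1 (enolase) had 1343 and 1348 against 300.4 and 612.6 CPM (edgeR adjusted p = 0.0919). Pdk1, a kinase that inhibits pyruvate dehydrogenase, had 89.4 and 73.2 against 18.1 and 22.99 CPM (edgeR adjusted p = 0.0611). Of 24 cholesterol synthesis genes none was called by edgeR, with 23 below 0 and 6 lower at an unadjusted p under 0.05. Acat2, at the start of the pathway, had 307.3 and 390.5 against 100.8 and 157.7 CPM (edgeR adjusted p = 0.0940).

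None of 83 ribosomal protein genes (median 0.28, 2 at an unadjusted p under 0.05) and none of 88 respiratory chain genes (median -0.06, 4 at an unadjusted p under 0.05) was called by edgeR. Of 67 replication-dependent histone genes, Hist3h2ba and the pseudogene Hist3h2bb-ps fell, all 67 lay below 0 and the median was -1.001. Hist3h2ba had 103.0 and 56.9 against 11.4 and 11.4 CPM. The histone genes together took 31170 and 40250 CPM in d3F and 12260 and 26010 in d5FS. In the deposited counts their share was 1.31% in d5FS replicate 1 and 2.59% in replicate 2, against 3.37 and 3.85% in d3F, so the d5FS samples lay apart from each other as well.

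**Figure D4:**
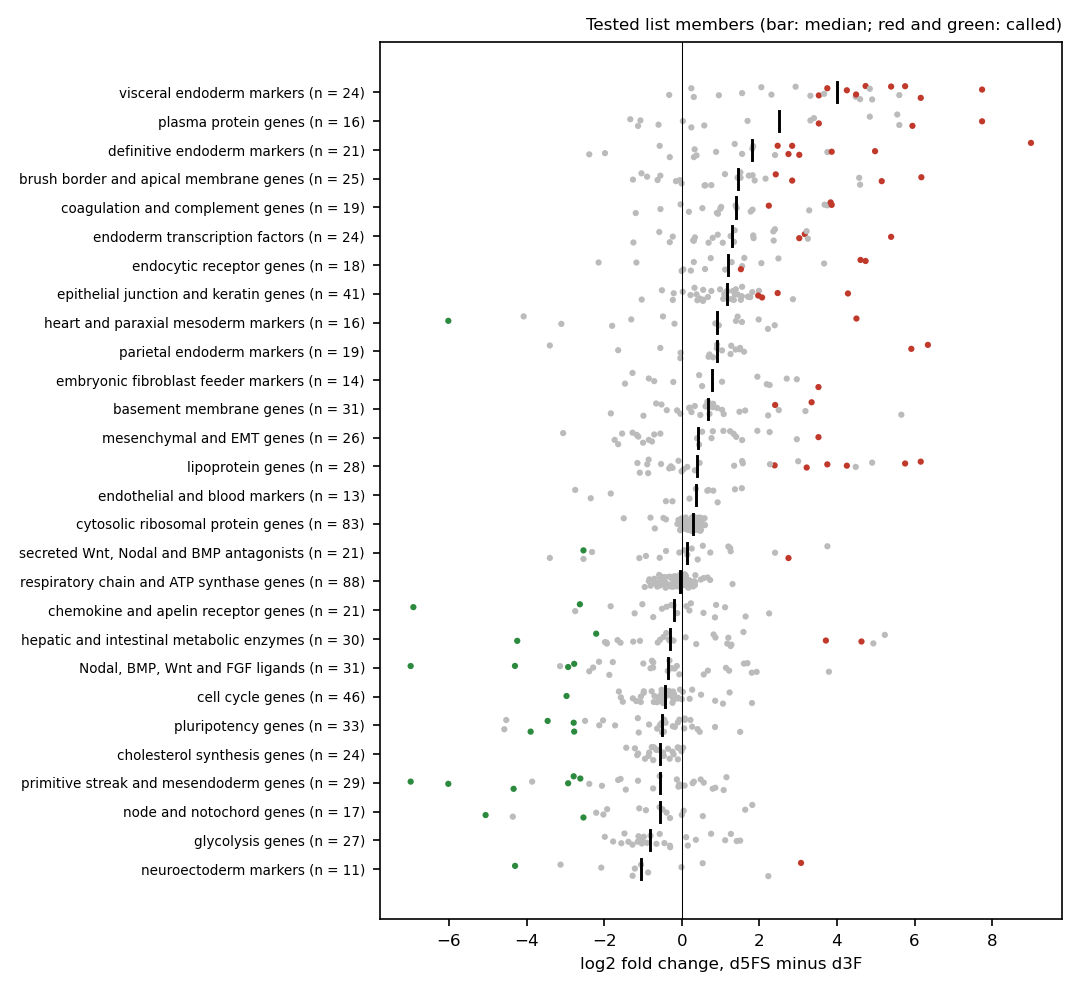
Log2 fold change (d5FS minus d3F, x axis) of every tested member of 28 gene lists, ordered by median (black bar), with genes called higher in red, lower in green and not called in grey. Visceral endoderm markers have the highest median (4.004) and neuroectoderm markers the lowest (-1.05).

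Markers of other cell types were read in the same samples. All 5 named d5FS markers rose, as given above, among them Sox17, whose direction was set by the gate. Of 21 definitive endoderm markers 7 rose (Pyy, Tnnc1, Cd55, again Sox17, Tmprss2, Cer1 and Krt18) and none fell. Their median was 1.82, also with Pyy at its bound. At an unadjusted p under 0.05, 12 were higher and 2 were lower. Their summed level went from 3579 and 3981 CPM in d3F to 9606 and 10380 in d5FS, and most of the d5FS sum was Krt8 and Krt18. Not all of the list followed. Trh, named after its values were seen, had 1540 and 903.1 CPM in d3F against 258.2 and 209.6 in d5FS (edgeR adjusted p = 0.111), and Nepn stayed at 0.115 CPM or less in all 4 samples. Of 24 visceral endoderm markers 9 rose (Afp, Apoa1, Apoa4, Hnf4a, Cubn, Spink3, Soat2, Apob and Rbp4), 20 were higher at an unadjusted p under 0.05 and none fell, with a median of 4.004. Their summed level was 378.6 and 338.6 CPM in d3F and 1451 and 1560 in d5FS. Gjb1 was at 0 or 0.0573 CPM throughout, and Ttr, Afp and Fgb were present in both d5FS samples. No called gene stood in both the visceral and the definitive endoderm list. Since both lists held called rises and no called fall, the d5FS cells are named here by their sort alone.

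Of 19 parietal endoderm markers, Srgn and Pga5 rose and none fell, with 9 higher and 2 lower at an unadjusted p under 0.05. Their summed level went from 805.7 and 1466 to 3096 and 3547 CPM. The laminin chain Lama1 of that list had 7.19 and 23.4 against 23.4 and 30.2 CPM. Of 16 heart and paraxial mesoderm markers, Myl7 rose and Mesp1 fell, and the summed level went from 26.8 and 59.0 to 435.7 and 173.2 CPM, most of it Myl7. The heart factors Nkx2-5, Hand1, Hand2 and Tbx5 stayed under 3 CPM in all 4 samples, and Tbx20 had 4.67 and 9.45 against 45.3 and 20.4 (edgeR adjusted p = 0.207).

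Feeder cells are embryonic fibroblasts on which ES cells are grown before differentiation. The methods state that feeders were removed before the cells were differentiated, and the sort kept reporter-positive cells only. Of 14 fibroblast markers Acta2 rose and none fell, with a median of 0.78. At an unadjusted p under 0.05, 6 of them were higher and 1 was lower. Their summed level went from 112.4 and 172.8 to 881.8 and 526.4 CPM, most of it Acta2 and Col1a2. Lum was at 0 in both d5FS samples, Dcn was under 1 CPM in all 4 samples, and Twist1 had 8.24 and 6.22 against 5.11 and 3.73. No endothelial or blood marker of 13 was called (0 by edgeR, 4 at an unadjusted p under 0.05). The embryonic globins Hbb-bh1, Hba-x and Hbb-y were at 0 in all 4 samples. Of 11 neuroectoderm markers Sox21 rose and Olig2 fell, the latter from 22.8 and 7.63 to 1.02 and 0.516 CPM, and Sox1 stayed under 1 CPM throughout. The part of other cell types in the changes of Acta2, Myl7 and the visceral endoderm genes was not tested.

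**Figure D5:**
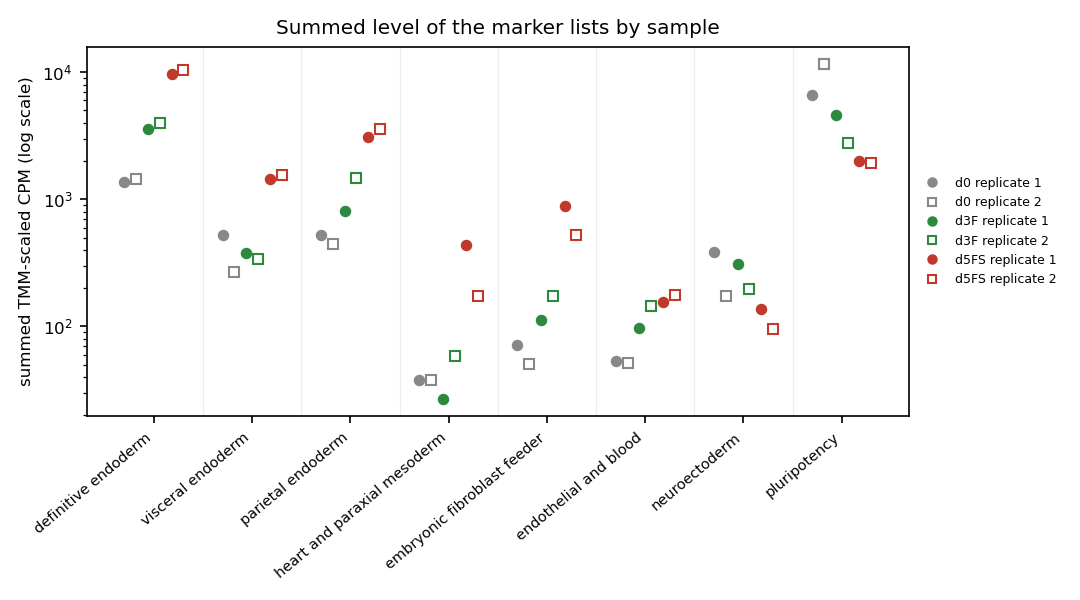
Summed TMM-scaled CPM of 8 marker lists on a log axis, 1 point per sample (grey d0, green d3F, red d5FS; filled replicate 1, open replicate 2). Both d5FS points lie above both d3F points in the definitive, visceral and parietal endoderm, heart, fibroblast, and endothelial and blood lists. In the neuroectoderm and pluripotency lists they lie below.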

How the data were processed

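RNA-seq of d3F and d5FS cells (2 replicates each) was compared, with 2 d0 samples in the fit. The members and gene lists were chosen with earlier results of these data known. According to the methods and the submitters' processing notes, the authors depleted ribosomal RNA, made TruSeq V2 libraries, aligned reads to mm10 (GRCm38) with STAR and counted with RSEM. Versions and the annotation release are not given in the sources used here. The sample list of the study names 1 library per population mRNA and the other total RNA, without saying which replicate is which. The deposited expected counts are not normalized. The TPM values deposited by the authors are scaled by effective length. The deposited FPKM values were not used.

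Expected counts of 24054 genes were rounded. Totals per sample ranged from 16457729 to 22768686. With edgeR 4.0.16 (R 4.3.3), filterByExpr kept 14539 genes, TMM factors were computed, and 1 mean per population was fitted (glmQLFit, glmQLFTest, 3 residual degrees of freedom). A call needed a log2 fold change beyond 1 in either direction and p under 0.05 after Benjamini-Hochberg adjustment. The fit of all 3 populations shares the spread. The standard error is the absolute log2 fold change over the square root of F. The script was tested on simulated data. Intervals and floors (3 counts per library) cover counting error only.

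Genes named are the markers, the 10 largest rises and 10 largest falls of at least 1 TPM, up to 4 called members per list by size of change (or the 2 with the lowest p where none was called), the Foxa, Gata and Zic families and the called Sox factors, and the 5 called genes with the highest TPM in each population. Others are marked as named after their values were seen. A few genes under this rule are not reported here. Promoters are from RefSeq (GRCm38.p6), matched by symbol for 10793 of the tested genes. Alternatives used DESeq2 1.42.0, other scalings, filters and samples.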

Additional observations from a re-analysis of the deposited data

How the results depend on the processing

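The 224 calls (157 higher, 67 lower) became 237 (168, 69) with DESeq2 size factors, 201 (142, 59) with upper quartile factors, 183 (134, 49) with DESeq2's test for changes beyond 2-fold and 238 (167, 71) over genes of 300 bases or more, an alternative chosen after seeing the data. They moved to 1104 (635, 469) with the DESeq2 Wald test, 70 (54, 16) with glmTreat, 1423 (760, 663) with no filter, 144 (108, 36) with at least 10 counts in every sample and 529 (376, 153) in a fit of the 4 samples alone. Leaving out 1 sample at a time gave from 0 to 496 calls, from 0 to 339 higher and from 0 to 158 lower; the upper ends come from leaving out a d0 sample, which changes both the shared spread and the genes tested (15221 and 15139 in place of 14539). The cause of these shifts was not tested. Similar totals need not hold the same genes. Of the 224 genes, 201 were called again with upper quartile factors, 159 with DESeq2's test for changes beyond 2-fold and 70 with glmTreat. With at least 10 counts in every sample, 159 of them were tested and 140 were called again. All 224 genes kept their sign wherever they were tested, which was nearly fixed in advance because their populations did not overlap.

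The replicate number as a block gave 918 calls (476 higher, 442 lower). Differences between replicates 1 and 2 correlated over genes with r = 0.278 between d3F and d5FS, 0.314 between d0 and d3F and 0.324 between d0 and d5FS. Replicate 2 also had more detected genes (18354 to 19859, against 16773 to 16977) and a larger share of TPM in genes under 300 bases in all 3 populations. Each population has only replicates 1 and 2 and the labels name no shared batch, so the numbers were not treated as a pairing. The study's sample list gives 1 mRNA and 1 total RNA library per population, without saying which replicate is which. Whether the numbers mark a pairing or this difference in library was not tested further. Genes given as not passing refer to the fit without the block. Sampling depth limits genes of a few counts, such as Afp in d3F.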
